A study of Homo sapiens with 24 samples.

Results

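The collagen chain genes were described in ovarian carcinoma cells that differ in cisplatin sensitivity and in cells treated with a ligand of DNA G-quadruplexes (G4s). Members were all genes of both RNA-seq count tables whose symbol has the form COL, a number, A and a number, which gave 44 of 28277 genes. PEO1 and PEO4 are high-grade serous ovarian carcinoma lines of a common origin, PEO1 being sensitive and PEO4 resistant to cisplatin. The A pair was untreated PEO1 with the genotype label WT, which the study describes as impaired in BRCA2, and untreated PEO4, also labelled WT. Both of these were grown in medium with added sodium pyruvate. The study describes PEO4 as carrying a reversion mutation that restores the BRCA2 reading frame. By its account the lines of the A pair thus differ in BRCA2 state, although both are labelled WT. The B pair was PEO1 with the genotype label BRCA2+ (named PEO1 BRCA+ here), in which a spontaneous second mutation restored BRCA2, and PEO4, each untreated or given 5 µM pyridostatin (PDS), a G4-binding small molecule, for 2 or 6 h. Each of the 8 conditions had 3 libraries of polyadenylated RNA, 24 in all. The cells were cultured lines, and the labels name no stromal cells, no animal host and no vehicle-treated group.

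Collagens are secreted or membrane-bound proteins in which 3 chains wind into a triple helix. Fibrillar collagens (types I, II, III, V, XI, XXIV and XXVII) form the cables of connective tissue, type IV forms the sheet-like network of basement membranes, and type VI forms beaded filaments beside cells. Smaller classes decorate fibrils, anchor epithelium to the tissue beneath it, form short-chain lattices or span the cell membrane. In ovarian tumours fibroblasts deposit most of the fibrillar matrix, whereas carcinoma cells are known to make basement membrane components themselves.

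The libraries held 32528913 to 63882077 counts in the A pair and 18699929 to 43713947 in the B pair. Untreated libraries of the B pair were shallower (at most 22375644 counts) than treated ones (at least 33260167) in both lines, so depth and treatment cannot be told apart there. The cells carried the markers of their labelled type in all 24 libraries, with CDH1 at 99.7 to 199 CPM (counts scaled to a common library size), EPCAM at 289 to 582, PAX8 at 105 to 347 and WT1 at 82.6 to 187. Of the 7 stromal markers DCN, LUM and PDGFRA did not exceed 0.480, 0.369 and 0.214 CPM in any library, whereas FAP ranged up to 16.3, PDGFRB up to 3.85, ACTA2 from 0.910 to 4.78 and THY1 from 5.33 to 392. Their summed level was 370 to 413 CPM in PEO1 and 75.3 to 101 in PEO4 of the A pair, and the B pair held 7.79 to 18.6 in PEO4 against 114 to 137 for PEO1 BRCA+. On PDS that sum was 64.9 to 94.3 at 2 h and 41.5 to 47.3 at 6 h in PEO4, most of it THY1. Of the leukocyte markers CD3E was at 0 and PTPRC did not exceed 0.0418 CPM, whereas CD68 ranged from 22.8 to 78.2 CPM and made up nearly all of their sum. Of the endothelial markers CDH5, VWF and PECAM1 did not exceed 0.315, 1.22 and 1.98 CPM. The part of cells that express these markers in the collagen results was not tested. The study calls its replicates biological, but the labels do not say whether the 3 libraries of a condition came from separate cultures, so the p-values measure the spread between these libraries.

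Of the 44 collagens, 22 reached a mean of 5 CPM in at least 1 condition, 7 peaked between 1 and 5 CPM, and 15 stayed under 1 CPM everywhere. Only 5 were above 5 CPM in all 8 conditions: COL4A5, COL6A1, COL12A1, COL18A1 and COL27A1. The summed collagen level was 764 ± 48.6 CPM (SD, n = 3) in PEO1 and 621 ± 58.9 in PEO4 of the A pair, and 848 ± 42.7 in PEO1 BRCA+ and 366 ± 32.7 in PEO4 of the B pair. On PDS the sum was 1216 ± 24.6 CPM at 2 h and 1220 ± 66.5 at 6 h in PEO1 BRCA+, against 222 ± 23.9 and 158 ± 12.2 in PEO4. All 3 libraries of each treated condition lay outside the range of their untreated libraries, upwards in PEO1 BRCA+ and downwards in PEO4. The rise in PEO1 BRCA+ lay mainly in type IV chains, whose sum was 552 to 608 CPM untreated and 972 to 1016 at 2 h. The sums of the transmembrane chains and of COL15A1 with COL18A1 were also higher at 2 h. Those of the fibrillar, fibril-associated and short-chain classes were lower. In these bulk libraries, fewer cells that express a gene and less RNA per cell cannot be told apart. CPM were scaled within each table, so levels of the A and B pairs are set side by side here without a test.

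The leading chains also differed between the lines. Per kilobase of transcript the leading collagens of PEO1 were COL5A1 (25.7 CPM per kb), COL4A2 (18.2) and COL4A1 (10.7). In PEO1 BRCA+ the order was COL4A2 (57.7 CPM per kb), COL4A1 (27.5) and COL18A1 (12.3). COL18A1, the endostatin-bearing collagen of basement membranes, led in both PEO4 cultures, at 42.1 CPM per kb in the A pair and 23.3 in the B pair, followed by COL6A1 at 33.8 and 8.43. On PDS the leading 3 collagens of PEO1 BRCA+ held 85.0% of its collagen reads at 2 h and 85.9% at 6 h, against 72.9% before treatment.

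**Figure D1:**
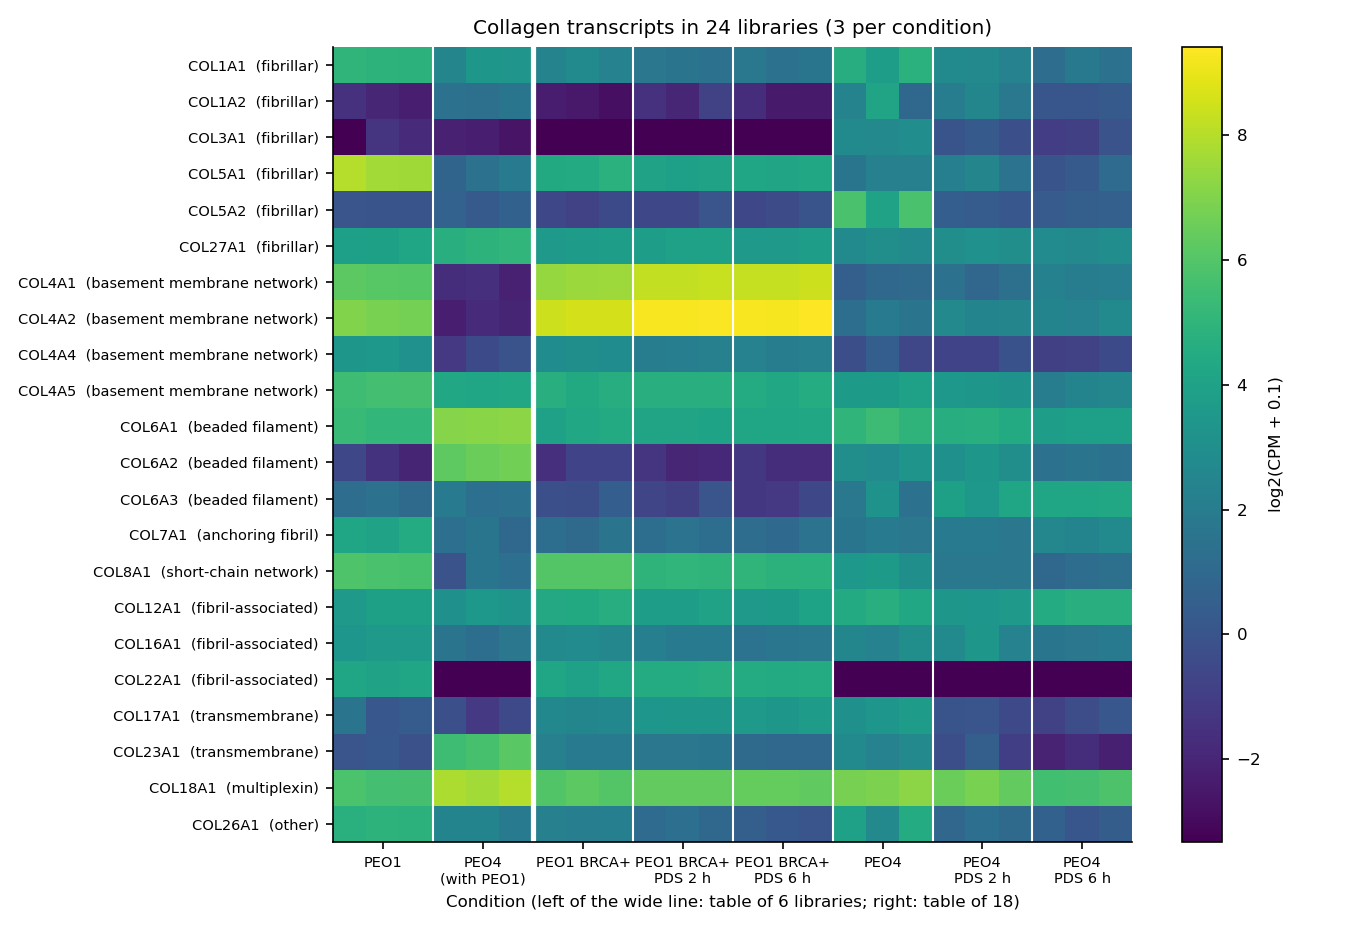
Level of the 22 collagens with a mean of at least 5 CPM in 1 condition (rows, with their class) in each of 24 libraries (columns, 3 per condition), coloured by log2(CPM + 0.1). COL4A1 and COL4A2 are bright in both PEO1 states and dark in both PEO4 cultures, COL22A1 is at 0 in every PEO4 library, and COL3A1, COL5A2 and COL26A1 are brightest in the B pair within untreated PEO4.

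PDS binds G4s, stacked structures of guanine-rich DNA, and several collagen promoters hold sequences of that kind. Among the RefSeq promoter windows of GRCh38.p14 (250 bases before to 50 after a start), 44 windows belonged to 32 of the 44 collagens. A motif of at least 4 runs of GGG separated by 1 to 7 bases, or the same with CCC for the other strand, with overlapping matches merged, was present in 20 of these windows (45.5%) and in 8778 of 35116 windows of all genes (25.0%). The collagen windows also had a higher median GC content, 63.7% against 58.7%. The following 4 windows are shown because they hold the start of the most abundant type IV chains of PEO1 BRCA+ (COL4A1, shared with COL4A2), of a chain called higher in PEO4 of both pairs (COL6A2), of the chain called higher on PDS in PEO4 at both times (COL6A3) and of a chain whose response to PDS was opposite in the 2 lines (COL17A1). Each is written 5′ to 3′ on the gene's strand, and capitals mark the motif.
COL4A1, chr13:110307108-110307407, minus strand: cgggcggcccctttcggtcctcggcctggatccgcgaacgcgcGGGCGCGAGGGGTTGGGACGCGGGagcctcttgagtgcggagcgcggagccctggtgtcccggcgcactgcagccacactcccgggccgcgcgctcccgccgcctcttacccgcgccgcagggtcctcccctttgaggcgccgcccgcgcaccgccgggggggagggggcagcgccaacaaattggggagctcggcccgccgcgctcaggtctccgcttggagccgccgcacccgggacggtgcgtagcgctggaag
COL6A2, chr21:46097862-46098161, plus strand: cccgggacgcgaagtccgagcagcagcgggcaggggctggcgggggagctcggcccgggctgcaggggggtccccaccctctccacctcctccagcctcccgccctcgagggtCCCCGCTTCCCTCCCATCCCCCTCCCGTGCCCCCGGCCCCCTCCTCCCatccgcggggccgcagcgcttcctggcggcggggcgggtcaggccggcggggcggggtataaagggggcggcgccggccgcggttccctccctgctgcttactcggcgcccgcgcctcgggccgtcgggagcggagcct
COL6A3, chr2:237414115-237414414, minus strand: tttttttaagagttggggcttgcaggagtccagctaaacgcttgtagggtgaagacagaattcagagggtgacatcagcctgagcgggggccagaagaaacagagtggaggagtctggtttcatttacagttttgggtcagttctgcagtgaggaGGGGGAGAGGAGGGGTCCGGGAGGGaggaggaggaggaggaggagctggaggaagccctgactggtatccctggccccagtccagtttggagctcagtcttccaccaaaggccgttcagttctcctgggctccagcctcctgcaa
COL17A1, chr10:104085831-104086130, minus strand: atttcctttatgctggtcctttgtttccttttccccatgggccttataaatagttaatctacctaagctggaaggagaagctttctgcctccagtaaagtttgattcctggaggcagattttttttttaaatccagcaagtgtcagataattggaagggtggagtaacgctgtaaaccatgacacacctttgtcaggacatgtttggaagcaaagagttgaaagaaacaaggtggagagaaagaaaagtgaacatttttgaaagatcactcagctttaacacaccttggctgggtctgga
In the COL4A1 window the motif lay 207 to 184 bases before the start. The same window holds the start of COL4A2, which is transcribed on the plus strand, away from the COL4A1 start and towards the motif. The window listed for COL4A2 itself held no match on either strand. The COL6A2 motif is written in cytosines and lay 137 to 90 bases before the start, the COL6A3 motif 95 to 71 bases before it, and the COL17A1 window, with 40.7% GC, held no match.

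The first question was which collagens differ between sensitive and resistant cells before any treatment. Calls rest on edgeR and require 2 things: a p-value that stays under 0.05 after Benjamini-Hochberg adjustment over all genes tested, and a log2 fold change beyond 1 in either direction. In the A pair 29 collagens passed the filter on low counts, and 8 of them (27.6%) were called higher and 15 (51.7%) lower in PEO4, where 12.6% and 13.1% of all genes tested were called higher and lower. In the B pair 30 passed, with 11 (36.7%) called higher and 8 (26.7%) lower in PEO4 against 12.2% and 12.6% of all genes. The filter also admits genes that are high in a single line, and the direction of their calls is thereby fixed. Among these were COL9A1 and COL22A1 in the A pair and COL3A1, COL21A1 and COL22A1 in the B pair. All genes tested passed the same filter. The median log2 fold change of the tested collagens was -1.32 in the A pair and 0.68 in the B pair, and that of all genes was -0.01 and 0.00. Of the 28 collagens tested in both pairs, 12 were called the same way, 2 opposite ways, 8 in the A pair alone, 3 in the B pair alone and 3 in neither. Over the 15396 genes tested in both, these classes held 14.3%, 0.76%, 9.77%, 8.98% and 66.2%, against 42.9%, 7.14%, 28.6%, 10.7% and 10.7% of the 28 collagens.

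Basement membrane chains made up the largest block of same-direction differences. All 6 type IV chains were called lower in PEO4 of the A pair, and 5 of the 6 in the B pair. COL4A1 and COL4A2 (chr13:110148963-110307157 and chr13:110307284-110513209), which together form the commonest type IV helix and are transcribed head to head from starts 126 bases apart, showed the largest differences. COL4A1 gave 74.8, 69.6 and 65.9 CPM in the PEO1 libraries and 0.216, 0.227 and 0.122 in PEO4, a log2 difference of -8.47 ± 0.16 (SE, edgeR adjusted p = 1.48e-12). COL4A2 gave 128, 114 and 110 CPM in PEO1 and 0.108, 0.199 and 0.153 in PEO4 (-9.64 ± 0.16). No PEO4 library of the A pair held more than 14 counts of COL4A1 or 7 of COL4A2.

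The B pair differed the same way at other levels. COL4A1 was at 171, 183 and 185 CPM in untreated PEO1 BRCA+ and at 1.34, 1.86 and 2.03 in PEO4 (-6.69 ± 0.12, edgeR adjusted p = 2.08e-23), and COL4A2 at 344, 386 and 387 against 2.34, 3.67 and 2.86 (-6.99 ± 0.12). The groups were far apart in each case. For both chains the difference between the lines was larger in the A pair, by -1.79 ± 0.28 for COL4A1 (edgeR adjusted p = 7.55e-06) and -2.68 ± 0.30 for COL4A2 (edgeR adjusted p = 3.6e-08) on the log2 scale. Antisense genes overlap COL4A2, and the strand setting of the counting is not given in the sources used here.

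COL4A3 and COL4A4, the chains of mature kidney and lung basement membranes, and COL4A6 also were lower in PEO4 in both pairs. COL4A4 was at 10.4, 11.1 and 8.51 CPM in PEO1 and 0.339, 0.624 and 0.857 in PEO4 (log2 difference -4.13 ± 0.27), and at 7.24, 8.06 and 7.16 in PEO1 BRCA+ and 0.736, 1.31 and 0.553 in its PEO4 (-3.13 ± 0.22). COL4A3 differed by -3.81 ± 0.32 and -2.11 ± 0.34, and COL4A6 by -3.53 ± 0.32 and -2.93 ± 0.28, both from means under 5 CPM. COL4A5, the X-linked partner of COL4A6, was the exception in size: 47.4 ± 3.1 CPM (SD, n = 3) in PEO1 and 19.0 ± 1.0 in PEO4 of the A pair (-1.32 ± 0.09), and 24 ± 2.2 and 13.3 ± 2.0 in the B pair, where -0.85 ± 0.11 did not pass the fold threshold although the libraries did not overlap. RHBDD1 overlaps COL4A4 and MFF-DT overlaps COL4A3, so a part of these counts could belong to the overlapping gene.

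COL22A1, a fibril-associated collagen of tissue junctions, separated the lines most completely. Its counts were 890, 613 and 944 in the PEO1 libraries (17.6 ± 1.1 CPM, SD, n = 3) and 379, 379 and 456 in untreated PEO1 BRCA+ (18 ± 2.2 CPM). All 12 PEO4 libraries, treated or not, had 0 counts. Against a floor of 3 counts per library PEO1 was at least 236-fold higher and PEO1 BRCA+ at least 129-fold higher than their PEO4.

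COL8A1, a short-chain collagen of vessel walls and subendothelial matrix, was likewise lower in PEO4 of both pairs. Its levels were 60.5, 53.6 and 52.3 CPM in PEO1 against 0.863, 2.98 and 2.39 in PEO4 (log2 difference -4.84 ± 0.40, edgeR adjusted p = 8.44e-05), and 64.4, 63.5 and 63.1 in PEO1 BRCA+ against 11.1, 12.4 and 7.97 (-2.60 ± 0.10, edgeR adjusted p = 5.02e-17). COL8A2, the other chain of type VIII, was higher in PEO4 of both pairs instead, by 1.13 ± 0.28 and 3.09 ± 0.44, from means of at most 2.8 CPM. The COL8A2 call in the A pair lost the threshold without PEO1 replicate 2 (1.0, edgeR adjusted p = 0.0198) and without PEO4 replicate 2 (0.97).

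Type VI collagen, whose filaments bind cells to their surroundings, ran the opposite way to type IV. COL6A2 (chr21:46098112-46132848) was at 76.2, 93.8 and 103 CPM in PEO4 of the A pair and at 0.586, 0.267 and 0.150 in PEO1 (log2 difference 8.08 ± 0.28, edgeR adjusted p = 1.97e-08). In the B pair it was at 7.75, 6.88 and 9.44 CPM in PEO4 and 0.240, 0.496 and 0.483 in PEO1 BRCA+ (4.27 ± 0.23, edgeR adjusted p = 2.92e-14). No libraries overlapped in either pair, and without PEO1 replicate 1 the A pair difference was 8.81. COL6A1, the chain that pairs with it, was at 39.3, 34.5 and 34.6 CPM in PEO1 and 136, 142 and 148 in PEO4 (1.97 ± 0.08), and at 15.8, 19.95 and 22.2 in PEO1 BRCA+ and 32.7, 42.8 and 30.8 in PEO4 (0.87 ± 0.11, not past the fold threshold). COL6A5 was called higher in PEO4 of both pairs from means under 1 CPM, by 1.65 ± 0.53 and 2.00 ± 0.53, and the first of these did not pass without PEO1 replicate 1 (1.20) or PEO4 replicate 3 (1.49).

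Fibrillar chains did not move as a class. COL5A1, which nucleates fibrils, was the leading collagen of PEO1, at 253, 200 and 197 CPM against 1.65, 2.64 and 3.80 in PEO4 (log2 difference -6.40 ± 0.29, edgeR adjusted p = 1.58e-06). PEO1 BRCA+ held much less, 20.9, 22.1 and 28.0 CPM, against 3.03, 4.52 and 4.65 in its PEO4 (-2.55 ± 0.24). COL5A2, the partner chain, was at 0.920, 0.881 and 0.902 CPM in PEO1 and 1.53, 1.13 and 1.47 in PEO4 of the A pair, which was not called (0.61 ± 0.29, edgeR adjusted p = 0.0819). In the B pair COL5A2 was at 0.575, 0.454 and 0.615 CPM in PEO1 BRCA+ and 54.2, 16.0 and 54.7 in PEO4 (6.25 ± 0.51, edgeR adjusted p = 1.02e-07).

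COL1A1, the main chain of type I collagen, was called in opposite directions in the 2 pairs. It was at 32.7, 29.7 and 29.1 CPM in PEO1 and 5.49, 10.7 and 9.92 in PEO4 of the A pair (log2 difference -1.83 ± 0.22), and at 5.03, 6.73 and 4.92 in PEO1 BRCA+ and 24.2, 13.7 and 28.3 in PEO4 of the B pair (1.99 ± 0.22). COL26A1, a collagen-like secreted protein, did the same: 27.0, 30.5 and 28.8 CPM against 5.24, 5.19 and 3.83 in the A pair (-2.59 ± 0.13) and 4.51, 4.26 and 4.43 against 15.6, 6.28 and 23.1 in the B pair (1.77 ± 0.33). The change of direction was past the threshold in the direct test of the pairs, at -3.85 ± 0.34 for COL1A1 (edgeR adjusted p = 1.49e-08) and -4.39 ± 0.40 for COL26A1 (edgeR adjusted p = 3.13e-08). In both genes the PEO1 states differed as well as the PEO4 cultures.

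COL3A1, the chain of type III collagen, which often lies beside type I in soft tissue, passed 1 CPM in untreated PEO4 of the B pair and in no other untreated culture, with 153, 124 and 164 counts (6.80 ± 0.68 CPM, SD, n = 3). The 9 PEO1 BRCA+ libraries had 0 counts, so that untreated PEO4 was at least 51.1-fold higher, and the A pair had at most 11 counts in a library. COL1A2 was higher in PEO4 of both pairs: 12, 6 and 6 counts in PEO1 against 166, 88 and 98 in PEO4 (log2 difference 3.93 ± 0.35), and 2, 2 and 1 counts in PEO1 BRCA+ against 117, 344 and 39 in PEO4, a ratio of 105 (95% exact counting interval 44.6 to 324, counting error only). COL27A1, an early cartilage collagen, differed by less than the fold threshold in both pairs and in opposite directions, 0.91 ± 0.13 and -0.89 ± 0.11.

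Replicate 2 of untreated PEO4 in the B pair stood apart in several of these genes. It was the lowest of the 3 libraries for COL1A1 (13.7 CPM), COL5A2 (16.0) and COL26A1 (6.28), and the highest for COL1A2 (17.3 CPM against 5.07 and 1.80) and COL6A3 (9.34 against 3.29 and 2.63). Its THY1 level was also the highest of the 3, at 14.3 CPM against 5.33 and 6.31, and its MMP2 level was 7.58 CPM against 1.69 and 1.57. Without this library the B pair differences were 2.23 for COL1A1, 6.63 for COL5A2, 2.14 for COL26A1, 5.48 for COL1A2 and 1.65 for COL6A3 on the log2 scale, and all 19 calls between PEO1 BRCA+ and PEO4 were kept when any 1 library was left out. What sets this library apart was not tested.

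**Figure D2:**
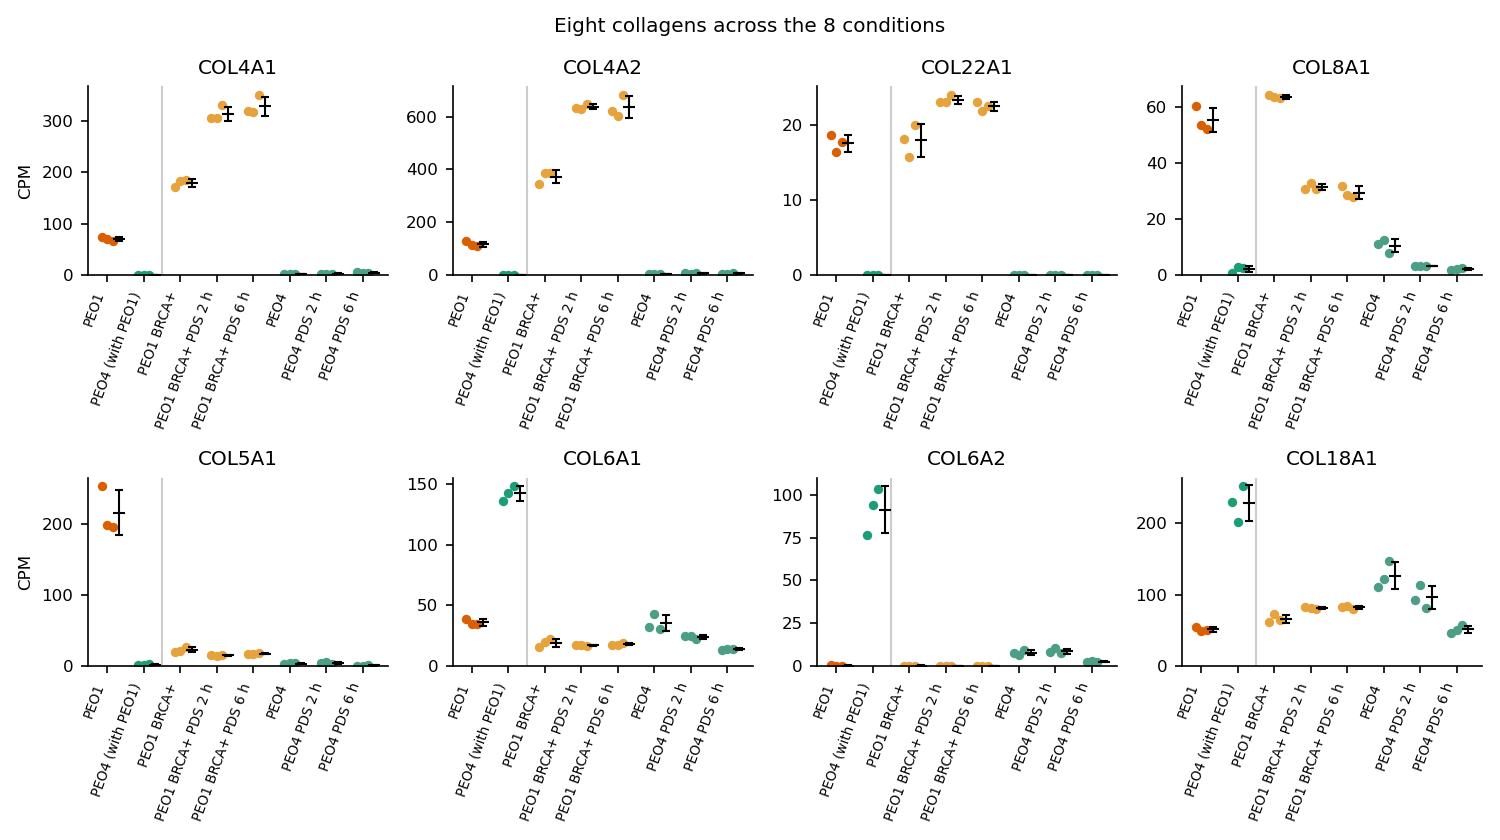
CPM of 8 collagens in the 8 conditions, with a point per library and a bar at the mean ± SD of 3 libraries; the grey line separates the 2 tables, which were scaled separately. COL4A1, COL4A2, COL22A1 and COL8A1 are high in both PEO1 states, COL5A1 is high in PEO1 of the A pair, and COL6A1, COL6A2 and COL18A1 are highest in PEO4 of the A pair.

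Several collagens separated the lines strongly in the A pair and less in the B pair. COL23A1, a transmembrane collagen that is shed from the cell surface, was at 0.920, 1.04 and 0.789 CPM in PEO1 and 43.7, 51.5 and 72.3 in PEO4 (log2 difference 5.94 ± 0.23), but at 4.55, 3.88 and 3.78 in PEO1 BRCA+ and 6.71, 4.87 and 6.17 in PEO4 of the B pair (0.55 ± 0.20). COL18A1 was at 55.1, 49.1 and 50.6 CPM in PEO1 and 230, 202 and 252 in PEO4 (2.14 ± 0.09), and at 61.4, 72.5 and 65.2 and 110, 122 and 147 in the B pair (0.92 ± 0.12). COL7A1, the anchoring fibril of skin and other epithelia, was at 18.4, 16.2 and 23.1 CPM in PEO1 and 2.39, 2.98 and 1.81 in PEO4 (-3.01 ± 0.19), whereas 2.41 ± 0.46 and 3.28 ± 0.30 CPM in the B pair were not called.

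COL16A1, a fibril-associated chain, was lower in PEO4 of the A pair (10.4, 11.2 and 11.6 CPM against 2.85, 2.30 and 3.18, log2 difference -1.99 ± 0.16) and was alike in the B pair in mean (6.53 ± 0.65 and 6.14 ± 1.48 CPM, SD, n = 3). COL13A1, a transmembrane chain under 5 CPM, was called lower in PEO4 of the A pair alone (-1.39 ± 0.30). Its B pair difference had the other sign and was not called (0.74 ± 0.36, edgeR adjusted p = 0.068). COL17A1, the hemidesmosome collagen of epithelial cells, was called lower there too (-1.54 ± 0.45, edgeR adjusted p = 0.0104), but its PEO1 libraries gave 2.89, 0.988 and 1.22 CPM and without the first of them the difference was -0.93 (edgeR adjusted p = 0.0831). In the B pair COL17A1 was higher in PEO4 without passing the fold threshold (0.83 ± 0.15, edgeR adjusted p = 2.2e-05). COL9A1, a cartilage fibril-associated chain, was at 4.18, 4.82 and 5.85 CPM in PEO4 of the A pair and at 0 in its PEO1, at least 74.5-fold. In the B pair it did not pass the filter on low counts.

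Calls in the B pair alone were COL5A2, COL6A3 and COL9A2 among genes tested in both tables. COL6A3, the large chain of type VI filaments, was at 0.767, 0.744 and 1.32 CPM in PEO1 BRCA+ and 3.29, 9.34 and 2.63 in PEO4 (log2 difference 2.40 ± 0.51, edgeR adjusted p = 0.000915). COL9A2 and COL21A1 were called higher in PEO4 from 35 and 66 counts against 5 and 1, ratios of 7.34 (95% exact counting interval 2.86 to 24) and 69.2 (12.0 to 2774).

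Tested directly, the difference between the lines was not the same in the 2 pairs for most of the tested collagens. Of 31 collagens in the joint fit, the PEO4 minus PEO1 difference was larger in the A pair for 5 (6.27% of all genes tested were called so) and smaller or more negative for 18 (8.74% of all genes), with a median of -1.94 against -0.05 over all genes. The 5 were COL6A2 (3.77 ± 0.55), COL23A1 (5.36 ± 0.31), COL27A1 (1.76 ± 0.16), COL18A1 (1.19 ± 0.16) and COL6A1 (1.07 ± 0.14), and the last of these was 0.97 without PEO1 BRCA+ replicate 3 and 0.99 without replicate 3 of PEO4 in the B pair. Beside the genes given above, the 18 included COL5A1 (-3.90 ± 0.40), COL5A2 (-5.65 ± 0.62), COL7A1 (-3.48 ± 0.26), COL8A1 (-2.29 ± 0.31), COL17A1 (-2.38 ± 0.41), COL16A1 (-1.94 ± 0.29), COL6A3 (-2.07 ± 0.57), COL13A1 (-2.17 ± 0.47), COL8A2 (-2.0 ± 0.55), COL4A3 (-1.74 ± 0.48) and COL3A1, which had no counts in PEO1 BRCA+.

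Of the 18, 3 calls were close to the threshold. COL4A4 (-1.05 ± 0.38) was -0.96 without PEO1 replicate 2 and -0.65 and -0.66 without replicate 1 of PEO4 in the A pair and replicate 2 in the B pair. COL9A2 (-2.90 ± 0.97) had adjusted p-values of 0.0523 and 0.055 in edgeR without PEO1 BRCA+ replicate 2 and without PEO4 replicate 2 of the B pair. COL9A3 (-1.0 ± 0.38) was -0.71 to -0.96 with the call lost when any of 6 libraries was left out, the smallest difference being without PEO4 replicate 3 of the B pair. The COL9A3 call was also lost with library totals, DESeq2 size factors, upper-quartile scaling, no low-count filter, a minimum count of 50, the DESeq2 test and the conditions fitted alone (-0.92 to -1.0), and that of COL4A4 with DESeq2 size factors, upper-quartile scaling, that minimum count, the DESeq2 test and the conditions fitted alone (-0.97 to -1.01). The pairs differ in the labelled BRCA2 state of PEO1, in the pyruvate of the medium and in the table they came from, and these cannot be told apart.

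**Figure D3:**
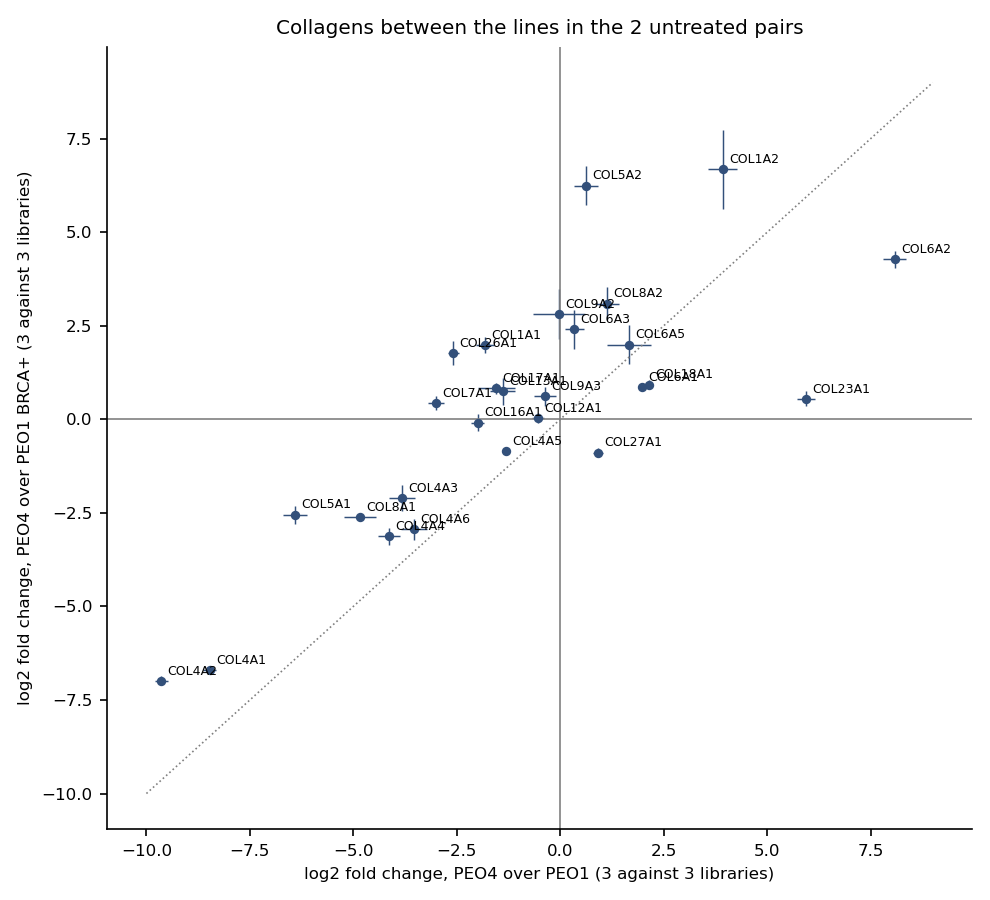
Log2 fold change of PEO4 over PEO1 in the A pair (horizontal) against PEO4 over PEO1 BRCA+ in the B pair (vertical) for 27 collagens tested in both, with bars of 1 SE; COL22A1 is left out since PEO4 had 0 counts. Type IV chains, COL5A1 and COL8A1 lie in the lower left quadrant, COL6A2 and COL1A2 in the upper right, and COL1A1 and COL26A1 in the upper left.

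The second question was how PDS changes collagen transcripts. In PEO1 BRCA+ few collagens passed both thresholds: 0 of 30 were called higher and 3 (10%) lower at 2 h, against 1.18% and 6.39% of all genes, and 0 were called higher and 5 (16.7%) lower at 6 h, against 1.29% and 6.83%. The medians were -0.08 and -0.11 where all genes had -0.03 and -0.03. At an unadjusted p under 0.05 edgeR had 6 collagens on the higher side at 2 h and 5 at 6 h, and DESeq2 called 0 higher at either time. Between 6 and 2 h edgeR and DESeq2 called 0 collagens either way (4 had an unadjusted p under 0.05 in edgeR, all lower), where 0.0705% and 0.0999% of all genes were called higher and lower.

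The most abundant collagens of PEO1 BRCA+ rose by less than the fold threshold, and did so in every library. COL4A1 was at 171, 183 and 185 CPM untreated, 306, 306 and 331 at 2 h and 319, 317 and 351 at 6 h (log2 change 0.81 ± 0.07 and 0.87 ± 0.07, edgeR adjusted p = 2.15e-09 and 5.7e-10). COL4A2 was at 344, 386 and 387 CPM, then 635, 630 and 649, then 621, 605 and 683 (0.78 ± 0.08 and 0.77 ± 0.08). All 6 treated libraries stood above all 3 untreated ones for both chains. COL17A1 moved the same way, from 5.99, 5.58 and 6.02 CPM to 10.2, 10.5 and 10.4 and to 11.5, 10.6 and 12.4 (0.82 ± 0.14 and 0.98 ± 0.14). With libraries scaled by their totals the median of all genes was -0.17 at both times, and COL4A1 rose by 0.66 and 0.72.

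COL8A1 fell in PEO1 BRCA+ from 64.4, 63.5 and 63.1 CPM to 30.9, 32.8 and 30.7 at 2 h and 32, 28.6 and 27.9 at 6 h (log2 change -1.02 ± 0.09 and -1.11 ± 0.09, edgeR adjusted p = 1.74e-09 and 3.99e-10). The 2 h and 6 h libraries overlapped, and all lay below the untreated ones, and the 2 h value was -0.99 without 2 h replicate 1 or replicate 3. COL26A1 fell from 4.51, 4.26 and 4.43 CPM to 2.08, 2.46 and 1.82 and to 1.36, 1.03 and 0.939 (-1.05 ± 0.37 and -1.98 ± 0.41). Its 2 h call was lost when any of 5 libraries was left out (edgeR adjusted p of 0.0641 to 0.0917 for COL26A1). COL6A2 was called lower at 2 h (-1.01 ± 0.41) from 5 to 12 counts per untreated library and lost that call without any of 4 libraries, with values of -0.82 to -0.93.

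At 6 h COL23A1 had fallen to 2.01, 1.82 and 1.85 CPM from 4.55, 3.88 and 3.78 (log2 change -1.10 ± 0.22, edgeR adjusted p = 0.00015) and COL16A1 to 2.79, 3.06 and 3.35 from 6.76, 7.02 and 5.80 (-1.09 ± 0.23). COL9A3, under 2 CPM in these cells, fell by 1.05 ± 0.29, a call that was lost without 6 h replicate 2 and without untreated replicate 1 or 2 (-0.96 to -1.0). COL1A1 (-0.94 and -0.91), COL12A1 (-0.58 and -0.70) and COL4A4 (-0.80 and -0.74) had adjusted p-values under 0.05 at both times in edgeR without reaching the fold threshold.

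PEO4 responded more broadly. At 2 h 1 of 30 tested collagens (3.33%) was called higher and 11 (36.7%) lower, where 6.40% and 11.0% of all genes were called higher and lower. At 6 h 2 (6.67%) were higher and 19 (63.3%) lower, against 6.26% and 16.3% of all genes. COL21A1, counted as lower at both times, passed the filter on low counts through untreated PEO4 alone, so it could only be called lower. The median log2 change of the tested collagens was -0.52 at 2 h and -1.49 at 6 h, with 0.00 and -0.03 over all genes. By class, the collagens called lower at 6 h were 5 of 6 fibrillar, 3 of 4 beaded filament, 2 of 6 basement membrane, both short-chain, 2 of 6 fibril-associated and all 3 transmembrane chains, with COL18A1 and COL26A1. Marker sums moved beside these falls: in PEO4 of the B pair the stromal sum was higher on PDS than before it, the leukocyte sum, nearly all CD68, was 32.2 to 54.5 CPM untreated and 67.4 to 78.2 at 2 h, and the endothelial sum fell from between 1.31 and 2.72 CPM to between 0.408 and 0.764 at 2 h and between 0.061 and 0.191 at 6 h. Their part in the collagen changes was not tested.

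Several fibrillar and transmembrane chains fell deeply. COL5A2 went from 54.2, 16.0 and 54.7 CPM in untreated PEO4 to 1.31, 1.19 and 1.01 at 2 h and 1.15, 1.37 and 1.41 at 6 h (log2 change -5.16 ± 0.42 and -5.00 ± 0.42, edgeR adjusted p = 1.36e-07 and 1.27e-07). Its level at both times was close to the 0.881 to 1.53 CPM of COL5A2 in the untreated A pair, which was scaled separately. COL3A1, its neighbour 19151 bases away on chromosome 2, which is transcribed towards it, went from 6.62, 6.23 and 7.56 CPM to 0.889, 1.13 and 0.768 and to 0.405, 0.427 and 0.868 (-2.87 ± 0.25 and -3.60 ± 0.26). Treated and untreated libraries were well separated in both genes, and without untreated replicate 2 the changes of COL5A2 were -5.54 and -5.38.

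COL17A1 fell from 8.40, 10.4 and 12.6 CPM to 0.889, 0.934 and 0.600 and to 0.477, 0.702 and 0.988 (log2 change -3.70 ± 0.18 and -3.88 ± 0.19, edgeR adjusted p = 1.33e-14 and 7.25e-15). COL23A1 went on falling between the time points, from 6.71, 4.87 and 6.17 CPM to 0.722, 1.33 and 0.408 and to 0.143, 0.214 and 0.120 (-2.88 ± 0.23 and -5.20 ± 0.31). At 6 h the 3 libraries held 6, 7 and 4 counts of COL23A1. COL13A1, another transmembrane chain, fell by 2.12 ± 0.39 at 6 h from a mean of 1.08 CPM.

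Type I chains and COL26A1 were lower at 6 h than at 2 h in mean. COL1A1 was at 24.2, 13.7 and 28.3 CPM untreated, 6.56, 6.17 and 4.90 at 2 h and 2.27, 3.45 and 2.69 at 6 h (log2 change -1.92 ± 0.21 and -2.99 ± 0.23, edgeR adjusted p = 3.93e-07 and 2.88e-09). COL26A1 was at 15.6, 6.28 and 23.1 CPM, then 1.72, 2.38 and 2.02, then 1.43, 0.976 and 1.26 (-2.88 ± 0.34 and -3.60 ± 0.37). COL1A2 overlapped its untreated range at 2 h (3.97, 5.63 and 3.34 CPM against 5.07, 17.3 and 1.80) and was below it at 6 h (0.954, 0.976 and 1.14, -2.96 ± 0.63). Without untreated replicate 2 the 6 h value of COL1A2 was -1.75 (edgeR adjusted p = 9.75e-05) and its 2 h value was 0.32 in place of -0.89, neither of the latter being called.

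A further set moved mainly after 2 h. COL18A1, the leading collagen of PEO4, was at 110, 122 and 147 CPM untreated, 92.5, 114 and 81.6 at 2 h and 46.8, 51.2 and 57.2 at 6 h (log2 change -0.39 ± 0.11 and -1.29 ± 0.12). COL6A1 went from 32.7, 42.8 and 30.8 CPM to 24.7, 25.3 and 22.1 and to 13.6, 14.4 and 14.6 (-0.56 ± 0.11 and -1.32 ± 0.11), and COL6A2 from 7.75, 6.88 and 9.44 CPM to 8.22, 10.5 and 7.85 and to 2.58, 2.90 and 2.63 (0.14 ± 0.15 and -1.57 ± 0.16). COL4A5 was at 12.0, 12.2 and 15.6 CPM, then 10.8, 10.7 and 9.34, then 4.08, 5.31 and 5.81 (-0.37 ± 0.12 and -1.40 ± 0.13). COL5A1 was at 3.03, 4.52 and 4.65 CPM, then 4.44, 5.55 and 2.81, then 0.906, 1.13 and 2.13 (0.06 ± 0.27 and -1.57 ± 0.32). In these 5 genes no 6 h library reached the lowest untreated library, while at 2 h COL18A1, COL6A2 and COL5A1 overlapped with their untreated range.

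COL8A1 fell in PEO4 as in PEO1 BRCA+, from 11.1, 12.4 and 7.97 CPM to 3.33, 3.31 and 3.27 and to 1.81, 2.23 and 2.52 (log2 change -1.66 ± 0.12 and -2.27 ± 0.13). Among members under 5 CPM, COL8A2 fell by 2.30 ± 0.36, COL9A3 by 2.35 ± 0.29, COL4A3 by 1.77 ± 0.51 and COL6A5 by 1.41 ± 0.45 at 6 h, and COL21A1 went from 66 to 3 counts, a ratio of 36.8 (95% exact counting interval 12.0 to 183). The COL6A5 call did not pass without untreated replicate 2 (-1.0, edgeR adjusted p = 0.0733). Of these, COL9A3 (-1.22 ± 0.26), COL4A3 (-1.22 ± 0.47) and COL21A1 (-2.91 ± 0.52) were called at 2 h already. The 2 h call of COL9A3 was lost without untreated replicate 3 (-0.93), and that of COL4A3 without any of 4 libraries (-1.03 to -1.18).

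A few collagens rose in PEO4. COL6A3 (chr2:237324018-237414164) was at 3.29, 9.34 and 2.63 CPM untreated, 14.97, 11.1 and 17.6 at 2 h and 18.4, 17.8 and 19.9 at 6 h (log2 change 1.54 ± 0.34 and 1.90 ± 0.34, edgeR adjusted p = 0.00128 and 0.000195). All treated libraries were above all untreated ones, and without untreated replicate 2 the changes were 2.30 and 2.66. COL4A1 was at 1.34, 1.86 and 2.03 CPM, then 2.67, 1.73 and 2.52, then 4.77, 4.03 and 4.34 (0.42 ± 0.17 and 1.34 ± 0.15, edgeR adjusted p = 2.52e-08 at 6 h). COL4A2 rose by 0.97 ± 0.14 and 0.94 ± 0.14, just under the fold threshold, from 2.34, 3.67 and 2.86 CPM to 6.39, 5.27 and 5.55 and to 5.27, 4.94 and 6.74. COL7A1 was at 3.28 ± 0.30 CPM untreated and 5.86 ± 0.64 at 6 h (0.84 ± 0.16), also under it.

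COL12A1, a fibril-associated chain that bridges fibrils, fell and came back. Its levels were 21.6, 26.3 and 19.1 CPM in untreated PEO4, 10.8, 10.3 and 11.8 at 2 h and 22.9, 24.9 and 25.1 at 6 h. The 2 h change was -1.02 ± 0.12 (-0.98 without 2 h replicate 2 and -0.89 without untreated replicate 2, which end the call), and the 6 h change was 0.12 ± 0.12. COL27A1 kept to 6.90 to 7.95 CPM in mean and was called at neither time.

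**Figure D4:**
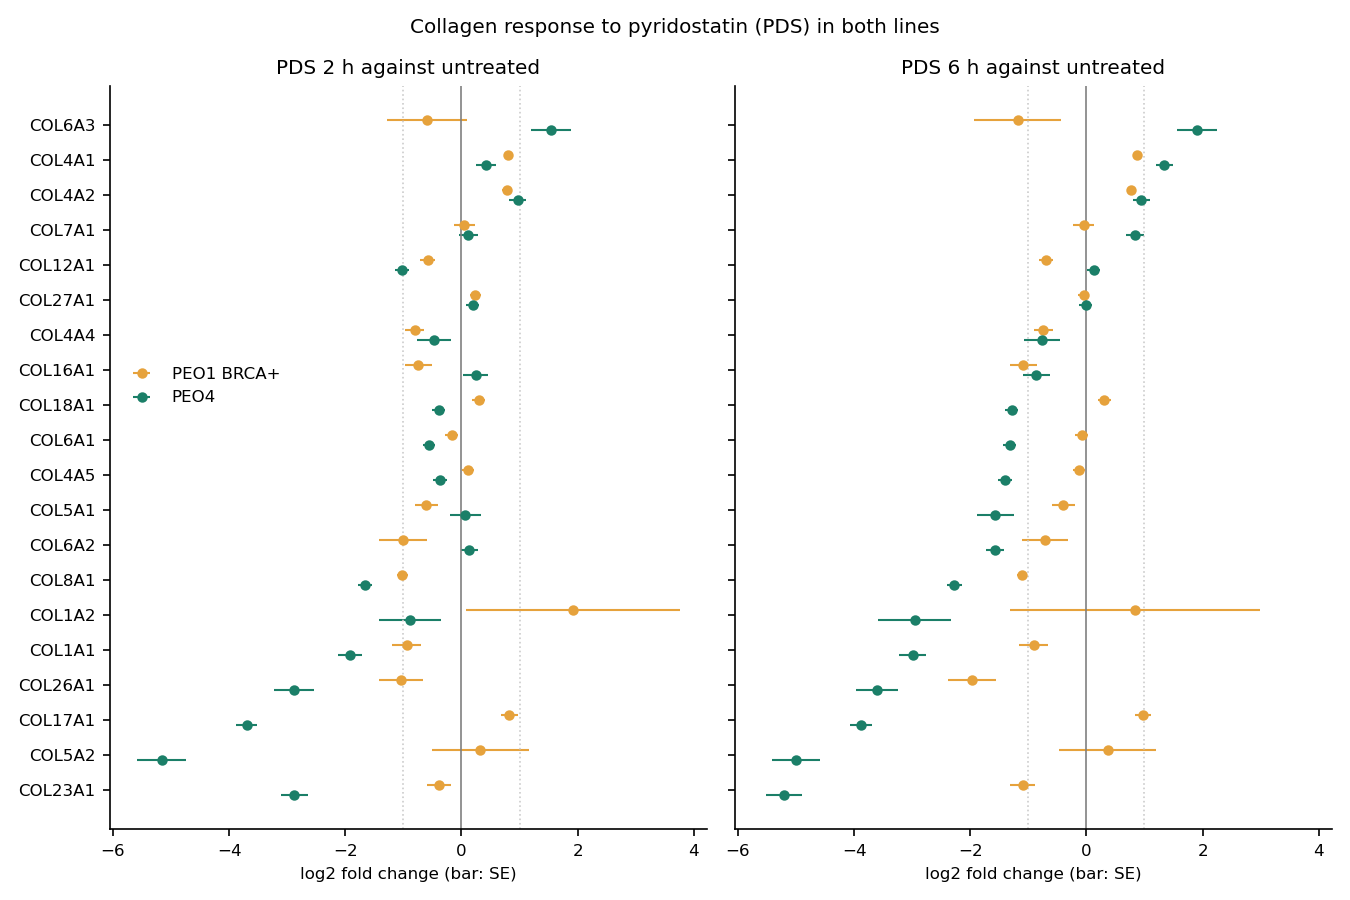
Log2 fold change on PDS against untreated cells of the same line, with bars of 1 SE, for 20 collagens with a mean of at least 5 CPM in a condition and no condition at 0 counts, in PEO1 BRCA+ and PEO4 at 2 h (left) and 6 h (right); dotted lines mark the fold threshold. At 6 h most PEO4 points lie left of -1, whereas PEO1 BRCA+ points lie mostly between -1 and 1; COL1A2 in PEO1 BRCA+ rests on 16 counts per library or fewer.

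From 2 to 6 h 1 collagen was called higher in PEO4 (3.33%) and 11 lower (36.7%), where 2.27% and 9.71% of all genes were, with a median of -0.74 against -0.02. The higher one was COL12A1 (1.15 ± 0.12, edgeR adjusted p = 6.03e-08). The lower ones were COL23A1 (-2.32 ± 0.40), COL1A2 (-2.07 ± 0.63), COL6A2 (-1.71 ± 0.15), COL5A1 (-1.63 ± 0.29), COL8A2 (-1.63 ± 0.36), COL13A1 (-1.28 ± 0.39), COL6A5 (-1.23 ± 0.42), COL9A3 (-1.13 ± 0.31), COL16A1 (-1.11 ± 0.22), COL1A1 (-1.07 ± 0.24) and COL4A5 (-1.03 ± 0.12). COL16A1 was -0.75 without 2 h replicate 2, which held 10.5 CPM against 6.53 and 4.90. COL9A3 was -0.77 without 2 h replicate 3, COL1A1 was -0.98 and -0.93 without replicate 1 of 2 h and of 6 h, COL4A5 was -0.88 to -1.0 without 3 libraries in turn, and COL6A5 had adjusted p-values of 0.061 and 0.0953 without 2 h replicate 2 and 6 h replicate 1.

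Whether the lines responded differently was tested as an interaction. At 2 h the response of PEO4 was higher than that of PEO1 BRCA+ for 2 of 30 collagens and lower for 4, against 6.10% and 4.92% of all genes, and at 6 h it was higher for 1 and lower for 13, against 5.42% and 9.34%. The 4 at 2 h were COL5A2 (-5.49 ± 0.95), COL17A1 (-4.52 ± 0.23), COL23A1 (-2.49 ± 0.32) and COL26A1 (-1.84 ± 0.51). The 2 on the higher side were COL6A3 (2.13 ± 0.78, edgeR adjusted p = 0.0478) and COL6A2 (1.15 ± 0.44, edgeR adjusted p = 0.0408), and both calls were lost when any of most single libraries was left out (COL6A3 1.81 to 2.28 and COL6A2 0.96 to 1.11 where lost). Without untreated PEO4 replicate 2 the value for COL6A3 was 2.88.

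COL17A1 gave the clearest difference in response, since it rose in all 6 treated PEO1 BRCA+ libraries and fell in all 6 treated PEO4 libraries, an interaction of -4.85 ± 0.24 at 6 h (edgeR adjusted p = 1.69e-13). The 6 h response was also lower in PEO4 than in PEO1 BRCA+ for COL5A2 (-5.36 ± 0.94), COL23A1 (-4.10 ± 0.41), COL1A1 (-2.09 ± 0.34) and COL18A1 (-1.60 ± 0.16). The same held for COL4A5 (-1.27 ± 0.16), COL6A1 (-1.24 ± 0.16), COL8A1 (-1.16 ± 0.16) and COL9A3 (-1.31 ± 0.42). COL5A2 had 11 to 31 counts per library in PEO1 BRCA+, a level that leaves little room to detect a fall of this size. COL26A1 (-1.63 ± 0.57), COL5A1 (-1.17 ± 0.38), COL6A5 (-2.15 ± 0.72) and COL21A1 (-5.83 ± 2.02, where no PEO1 BRCA+ library compared held more than 2 counts) did not hold the call when some libraries were left out. The values then were -1.45 to -1.68 for COL26A1, -0.91 to -1.07 for COL5A1, -1.70 and -1.82 for COL6A5 and -4.96 for COL21A1. The response of COL6A3 was higher in PEO4 (3.08 ± 0.83, edgeR adjusted p = 0.00793). For COL4A1 (0.47 ± 0.17) and COL4A2 (0.17 ± 0.17) the 6 h interaction was under the fold threshold (edgeR adjusted p = 0.0277 and 0.417).

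**Figure D5:**
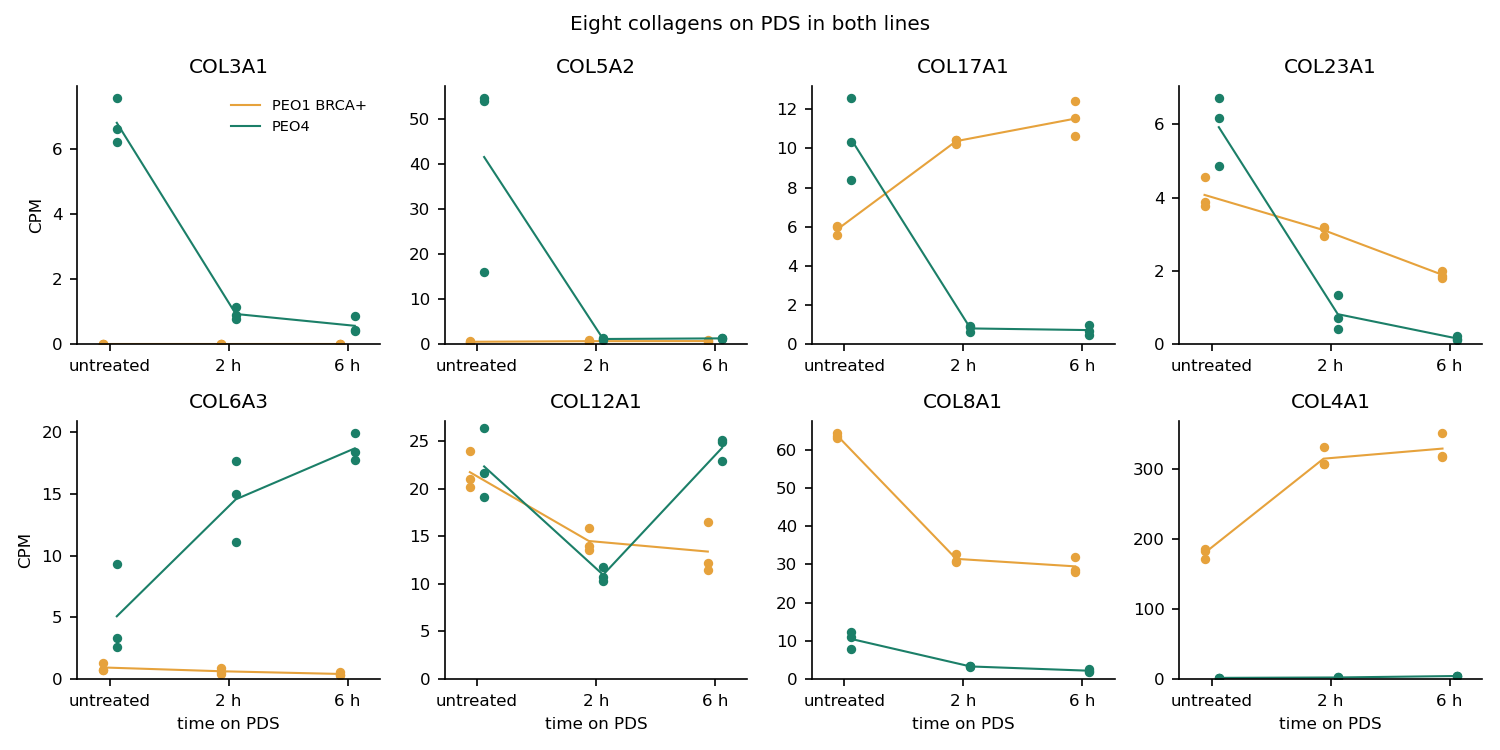
CPM of 8 collagens in untreated cells and after 2 and 6 h on PDS, with a point per library (3 per condition) and lines through the means, for PEO1 BRCA+ and PEO4. COL17A1 rises in PEO1 BRCA+ and falls in PEO4, COL6A3 rises in PEO4, COL12A1 dips at 2 h in PEO4 and returns, and COL4A1 rises in PEO1 BRCA+ at a level far above that of PEO4.

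Chains that assemble together did not always keep their ratio. COL4A2 over COL4A1, per kilobase, stayed within 1.66 to 1.73 in PEO1, 2.04 to 2.14 in untreated PEO1 BRCA+, 1.99 to 2.10 at 2 h and 1.94 to 1.98 at 6 h on PDS, and varied more in PEO4 of the B pair, from 1.43 to 2.00 untreated to 2.23 to 3.09 and 1.12 to 1.57 on PDS. COL5A1 over COL5A2 was 177 to 223 in PEO1, 29.4 to 39.3 in untreated PEO1 BRCA+, 0.875 to 2.09 in PEO4 of the A pair and 0.0453 to 0.229 in untreated PEO4 of the B pair. That last ratio turned to 2.25 to 3.78 at 2 h and 0.640 to 1.22 at 6 h. COL6A1 over COL6A3 fell in PEO4 of the B pair from 11.5 to 29.4 untreated to 3.14 to 5.73 at 2 h and 1.84 to 2.03 at 6 h, with no overlap between the 3 conditions.

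Among the 19 collagens called lower in PEO4 at 6 h, 11 had a promoter entry and 6 of those a G4 motif (COL5A1, COL4A3, COL6A2, COL8A2, COL13A1 and COL18A1). Both collagens called higher, COL4A1 and COL6A3, had a motif, as did 5 of the 8 tested collagens with an entry that were not called. COL17A1, whose window printed above has no match, fell by 3.88 on the log2 scale. These counts describe letters in a window and were not tested.

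The genes that modify, export, process, cross-link, cleave and sense collagen formed a separate list of 54, of which 45 were tested. Between the untreated lines 6 (13.3%) were called higher and 14 (31.1%) lower in PEO4 of the A pair, where 12.6% and 13.1% of all genes were, and 8 (17.8%) and 12 (26.7%) in the B pair, where 12.2% and 12.6% were. MMP14, a membrane-bound collagenase, was at 0.648, 0.801 and 0.827 CPM in PEO1 and 9.94, 11.3 and 10.6 in PEO4 (log2 difference 3.80 ± 0.18), and at 0.144, 0.248 and 0.0878 in PEO1 BRCA+ and 49.9, 48.2 and 66.3 in PEO4 of the B pair (8.37 ± 0.21). LOXL2, a cross-linking oxidase, was lower in PEO4 of both pairs (-3.94 ± 0.17 and -3.77 ± 0.18). ITGA1, a collagen receptor chain, was higher (1.75 ± 0.17) and MMP2, a gelatinase, lower (-3.46 ± 0.24) in PEO4 of the A pair, and in the B pair LOXL4 was higher (2.61 ± 0.18) and PCOLCE2, which enhances procollagen cleavage, lower (-2.08 ± 0.17). Between the pairs 3 of 46 (6.52%) were called larger and 8 (17.4%) smaller in the A pair, against 6.27% and 8.74% of all genes, among them PCOLCE2 (2.76 ± 0.27), MMP2 (-5.43 ± 0.65) and MMP14 (-4.61 ± 0.37). Without replicate 2 of untreated PEO4 in the B pair the value for MMP2 was -4.32, a 2.16-fold move.

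In PEO1 BRCA+ 1 gene of this list (2.22%) was called higher and 1 (2.22%) lower at 2 h, against 1.18% and 6.39% of all genes, and 1 (2.22%) and 2 (4.44%) at 6 h, against 1.29% and 6.83%. The one of these above 5 CPM was MMP9, another gelatinase, which rose from 2.11, 2.36 and 3.56 CPM to 9.04, 7.34 and 7.13 and to 7.89, 7.76 and 9.07 (log2 change 1.54 ± 0.17 and 1.62 ± 0.17). From 2 to 6 h edgeR called 0 of the list in either direction, against 0.0705% and 0.0999% of all genes, with 5 at an unadjusted p under 0.05.

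In PEO4 10 genes of the list (22.2%) were called higher and 6 (13.3%) lower at 2 h, against 6.40% and 11.0% of all genes, and 7 (15.6%) and 6 (13.3%) at 6 h, against 6.26% and 16.3%. From 2 to 6 h 1 (2.22%) was higher and 8 (17.8%) lower, against 2.27% and 9.71%. PLOD3, a lysyl hydroxylase that also glycosylates collagen, rose from 45.1, 52.9 and 43.8 CPM to 152, 148 and 143 at 6 h (log2 change 1.64 ± 0.06, edgeR adjusted p = 1.25e-16), and P4HA2, a prolyl hydroxylase chain, by 1.12 ± 0.09. LOXL4, the most abundant cross-linking oxidase of untreated PEO4 in this pair, went from 972, 690 and 1284 CPM to 328, 391 and 272 at 2 h and 104, 103 and 104 at 6 h (-1.57 ± 0.17 and -3.24 ± 0.19). MMP2 (2.67 ± 0.39) and LOXL2 (1.81 ± 0.19) rose at 2 h, when ITGA1 fell (-1.32 ± 0.13), and ADAMTS2, a procollagen peptidase, was 1.58 ± 0.17 lower at 6 h than untreated and 2.61 ± 0.15 lower than at 2 h. Without untreated replicate 2 the 2 h change of MMP2 was 3.79, a 2.16-fold move.

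In the interaction the 2 h response of PEO4 was higher for 8 genes of the list (17.8%) and lower for 6 (13.3%), against 6.10% and 4.92% of all genes. At 6 h it was higher for 6 (13.3%) and lower for 4 (8.89%), against 5.42% and 9.34%. The largest with a level of 5 CPM were LOXL2 (1.80 ± 0.24), ADAMTS2 (1.68 ± 0.19), P3H2 (-1.50 ± 0.11) and ITGA1 (-1.29 ± 0.19) at 2 h, and PLOD3 (1.61 ± 0.09), ADAMTS3 (1.10 ± 0.27), LOXL4 (-2.61 ± 0.25) and ITGA1 (-1.43 ± 0.20) at 6 h. The ADAMTS3 value was 0.85 without 6 h replicate 2 of PEO1 BRCA+ and 0.95 without untreated PEO4 replicate 3, which end its call. PLOD3 and LOXL4 moved in opposite directions within PEO4 while 19 collagens fell.

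The remaining collagens were at or near the limit of detection. Of the 44, 13 passed the filter on low counts in neither table: COL2A1, COL5A3, COL11A1, COL11A2 and COL24A1 of the fibrillar class, and COL6A6, COL10A1, COL14A1, COL19A1, COL20A1, COL15A1, COL25A1 and COL28A1. None was at 0 in all 24 libraries, and the highest single library among them held 0.538 CPM (COL14A1 in PEO4 at 2 h on PDS). COL11A2 lies in the major histocompatibility region on chromosome 6, where 37 of the 54 protein-coding genes of the tables within 1 Mb (68.5%) had a mean under 0.5 CPM, against 367 of 935 (39.3%) on the rest of that chromosome and the cause was not tested. Levels this low say only that these genes held too few counts at this depth for a test with all libraries.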

How the data were processed

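RNA-seq of polyadenylated RNA, read as 150 bp paired ends, covered 24 libraries in 2 tables of gene counts that the authors deposited, without normalization. Per the submitters' processing notes FastQC, fastp, STAR and featureCounts were used with the hg38 build; versions, annotation and strand setting are not given in the sources used here. Lines without readable counts (2 and 1) were left out. Totals of 18699929 to 63882077 counts per library limit the precision for low genes, and counting intervals cover counting error only.

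Counts were fitted with edgeR 4.0.16 (R 4.3.3; robust quasi-likelihood, TMM scaling, filterByExpr with a minimum count of 10 and a total of 15), separately for the A pair (15882 genes, 4 residual degrees of freedom), the B pair (17020 genes, 12) and, for the difference between pairs, both (17531 genes, 16). Genes were called where the p adjusted by Benjamini-Hochberg was below 0.05 with a log2 fold change beyond 1 either way. The SE of a log2 fold change was derived from the test, as its absolute value divided by the square root of the edgeR F statistic. DESeq2 1.42.0, other scalings and filters, a replicate block, the conditions compared alone and each library left out were alternatives. On simulated data each of 200 changed genes (log2 change of 2) was recovered with 1 false call, for the A pair (15825 genes) and for PEO4 at 6 h (16658 genes). The simulation used 1 setting of the spread for all genes and changed only genes above a set expected count. It therefore does not cover calls in low or variable genes.

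Values per library are given for collagens with a mean of at least 5 CPM in a condition, called collagens are named, and of the 54 related genes the 2 with the largest called change each way and 5 CPM in a compared group are named. The collagens and lists were chosen with earlier results of these data known. Antisense or overlapping genes lie over COL5A1, COL4A2, COL4A3, COL4A4, COL18A1, COL9A3 and COL10A1. Promoter windows came from RefSeq.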

Additional observations from a re-analysis of the deposited data

Results flagged for a closer look

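These collagens were singled out because a direct test in edgeR found that their difference was not the same in 2 groups; all values are differences of log2 fold changes, and no cause was tested. The response to PDS at 2 h was lower in PEO4 than in PEO1 BRCA+ for COL5A2 (-5.49), COL17A1 (-4.52), COL23A1 (-2.49) and COL26A1 (-1.84), and higher for COL6A3 (2.13) and COL6A2 (1.15). The 2 h calls of COL6A3 and COL6A2 were lost when any of most single libraries was left out.

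At 6 h the response was lower in PEO4 for COL5A2 (-5.36), COL17A1 (-4.85), COL23A1 (-4.10), COL1A1 (-2.09), COL26A1 (-1.63), COL18A1 (-1.60), COL4A5 (-1.27), COL6A1 (-1.24), COL5A1 (-1.17) and COL8A1 (-1.16), and higher for COL6A3 (3.08). Of these 6 h calls, those of COL26A1 and COL5A1 were lost when some libraries were left out.

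The untreated difference between PEO4 and its PEO1 was more positive in the A pair for COL23A1 (5.36), COL6A2 (3.77), COL27A1 (1.76), COL18A1 (1.19) and COL6A1 (1.07). It was more negative there for COL5A2 (-5.65), COL26A1 (-4.39), COL5A1 (-3.90), COL1A1 (-3.85), COL7A1 (-3.48), COL4A2 (-2.68), COL17A1 (-2.38), COL8A1 (-2.29), COL6A3 (-2.07), COL16A1 (-1.94), COL4A1 (-1.79) and COL4A4 (-1.05). Among these, the COL6A1 and COL4A4 calls were lost when some libraries were left out.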

How the results depend on the processing

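Of 138 called collagen results, 112 were called under all alternatives that tested them, 26 lost the call in at least 1 and 0 changed direction. The minimum count of 50 tested only 121 of the 138. Fitting the conditions compared alone, which was not run for the A pair, tested 111. All 19 calls between PEO1 BRCA+ and untreated PEO4 were kept where they were tested, and 0 of the 3 calls in PEO1 BRCA+ at 2 h. The cause of these moves was not tested, beyond the fewer libraries of a fit that leaves one out.

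With the adjusted p alone, 17 collagens were higher in PEO4 of the B pair, 6 higher and 8 lower in PEO1 BRCA+ at 2 h, 5 and 9 at 6 h, and 1 lower from 2 to 6 h. In PEO4 3 were then higher at 2 h, 4 at 6 h and 3 from 2 to 6 h, and in the interaction 9 were lower at 2 h and 4 higher at 6 h. Without the filter on low counts 0 were lower in PEO1 BRCA+ at 2 h, 3 higher in PEO4 at 2 h and 2 higher in the 6 h interaction. The number higher in the 2 h interaction was 1 with DESeq2 size factors, 0 with the replicate block and 0 with the conditions compared alone.

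When each library was left out, the collagens called lower in PEO1 BRCA+ at 2 h ranged from 0 to 3 and those higher at 6 h from 0 to 1. Those higher in PEO4 ranged from 1 to 4 at 2 h, 3 to 4 at 6 h and 1 to 2 from 2 to 6 h, and those higher in the interaction from 0 to 4 at 2 h and 1 to 3 at 6 h. These upper counts include COL15A1 and, once, COL25A1, which were not tested with all libraries and passed the filter on low counts only once 1 was left out; COL15A1 was then called higher in PEO4 at 6 h in all 6 such fits. For the 54 related genes, leaving out libraries was chosen after seeing the data.

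Same-numbered libraries deviated together with r of -0.043 to 0.03 in the A pair and -0.185 to 0.16 in the B pair, and the replicate block ended 3 calls. The labels do not say whether same-numbered libraries were cultured or prepared together, and these values cannot settle it.

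Over all genes, the calls in PEO1 BRCA+ at 2 h were 201 higher and 1087 lower, but 120 higher with library totals, 120 and 720 with a minimum count of 50, and 4489 and 4458 with the adjusted p alone. At 6 h 220 were higher, but 146 with library totals or that minimum and 4593 with the adjusted p alone, with 1163 and 4431 lower. From 2 to 6 h 12 and 17 became 6 and 6 with that minimum, 6 and 9 with DESeq2, and 674 and 508 with the adjusted p alone. In PEO4 at 6 h 1066 higher became 698 with library totals. The adjusted p alone turned 2009 and 2086 calls into 4775 and 5012 in the A pair, 2083 and 2145 into 5787 and 5885 in the B pair, 1089 and 1870 into 5675 and 5447 in PEO4 at 2 h, 1066 and 2782 into 5883 and 5998 at 6 h, and 387 and 1652 into 4915 and 5322 from 2 to 6 h. It turned 1039 and 837 into 3285 and 3066 and 923 and 1589 into 4160 and 3910 in the interactions, and 1099 and 1533 into 3322 and 4153 between the pairs. Library totals moved the share of lower calls in PEO4 at 6 h from 72.3% to 82.7%.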
